A study of Mus musculus with 2 samples.

Results

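Replication-dependent histone genes encode the bulk histones H1, H2A, H2B, H3 and H4 that package newly copied DNA in S phase. Their messenger RNAs are known for ending in a conserved stem-loop, bound by the protein SLBP, in place of a poly(A) tail. Downstream of some of these genes lie poly(A) signals, and polyadenylated forms of histone RNA are known from differentiated cells. A library made from poly(A)+ RNA samples these genes only through the molecules that the selection kept.

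The members were taken by name: every protein-coding gene of GENCODE M21 whose symbol begins with Hist1h, Hist2h, Hist3h or Hist4h. There were 67 such genes, 54 of the Hist1 group on chromosome 13, 10 of Hist2 on chromosome 3, 2 of Hist3 on chromosome 11 and 1 of Hist4 on chromosome 6. Of these, 64 were found by gene identifier among the 43346 genes of the deposited mm10 tables, and Hist1h2bh, Hist1h2bm and Hist2h2bb were not matched. The RNA came from the central nervous system of C57BL/6J mouse embryos at day 14, from pooled littermates of both sexes, and the only group had 2 biological replicates, numbered by the labels. Both carry the same donor identifier, so the spread between them is that between 2 pools, part of which may be technical. Per the labels, poly(A)+ RNA over 200 nucleotides (nt) that had been depleted of ribosomal RNA was sequenced with strand kept. Genes received 99528934 expected counts in replicate 1 and 134760822 in replicate 2, and ERCC spike-ins took 2.45% and 2.35% of all counts. The neuronal markers Tubb3, Gap43, Stmn2 and Dcx had medians of 683 and 638 TPM in replicates 1 and 2, so the neuronal part of the labelled tissue is there. Markers of skeletal muscle, cartilage and epidermis stood apart, with medians of 50.4, 127 and 34.8 TPM in replicate 1 against 0.46, 6.31 and 3.82 TPM in replicate 2.

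The stem-loop was searched in the members' M21 transcripts as GGNNNNTNTNNNNNCC, on the transcript's own strand, with the first and the last 6 letters pairing perfectly around a loop of 4. It was present in 46 of 67 members (68.7%) and in 113 of 21799 other protein-coding genes (0.518%), and in every member transcript that had it the match began past the length of the coding sequence. The following stretches show the forms it took, in GRCm38 (mm10) sequence from GENCODE M21, with the stem-loop in capitals.
Hist3h2ba (chr11:58949349-58949364, plus strand): acccaaaGGCTCTTTTCAGAGCCaccttcc
Hist3h2a (chr11:58955172-58955187, plus strand): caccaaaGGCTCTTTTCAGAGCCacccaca
Hist1h2bk (chr13:22036300-22036315, plus strand): caccaaaGGCTCTTTTAAGAGCCactaaac
Hist2h2ac (chr3:96220418-96220433, minus strand): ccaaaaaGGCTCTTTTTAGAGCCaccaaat
Hist1h3g (chr13:23535889-23535904, plus strand): ctttaaaGGCTCTTCTTAGAGCCacccatc
Hist1h4d (chr13:23581950-23581965, plus strand): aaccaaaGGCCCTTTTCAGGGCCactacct
Hist1h4i (chr13:22040966-22040981, minus strand): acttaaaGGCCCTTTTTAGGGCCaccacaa
Hist1h4b (chr13:23757366-23757381, plus strand): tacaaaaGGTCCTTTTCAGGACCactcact
Hist1h4a (chr13:23760800-23760815, minus strand): aaccaaaGGCCCTTCTCAGGGCCgcccaca

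The form in Hist3h2ba and Hist3h2a was the most frequent, with 26 genes of the classes H1, H2A, H2B and H3. All 12 H4 genes with a match had other stems. The 16 letters of Hist1h4d stood in 7 of them, and those of Hist1h4i in 2 and of Hist1h4a in 1, which have the same stem with another loop. The stem of Hist1h4b stood in 2. The form of Hist1h2bk was shared by 6 genes of H1, H2B and H3, and those of Hist2h2ac and Hist1h3g stood in 1 gene each. The other 21 members had no match in their annotated transcripts, which says only that these letters are not in the models. Many models are short: 11 of the 69 member transcripts listed in the deposited tables under their own gene held the coding sequence and stop codon alone.

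Most members were seen in the poly(A)+ libraries. A gene was called detected at 1 TPM or more (TPM being the authors' abundance, scaled for transcript length and for depth) in both replicates, and 55 of 64 members (85.9%) passed, against 63.4% of the 21474 protein-coding genes in the tables. At 10 TPM or more in both replicates stood 31 members (48.4%), against 42.9% of protein-coding genes. Detection did not single out a class: it held for 5 of 6 H1 genes, 16 of 18 H2A genes, 12 of 15 H2B genes, 11 of 12 H3 genes and 11 of 13 H4 genes. Detected members ranged from a mean of 2.05 TPM, in Hist1h2be, to 605 TPM, in Hist3h2ba. The median member had 9.57 TPM in replicate 1 and 13.0 TPM in replicate 2, against 6.91 and 6.07 TPM for the median protein-coding gene. Together the members took 445.8 CPM (expected counts scaled to the same total over genes, not divided by length) in replicate 1 and 621.8 in replicate 2, or 534 ± 124 CPM (SD, n = 2).

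**Figure D1:**
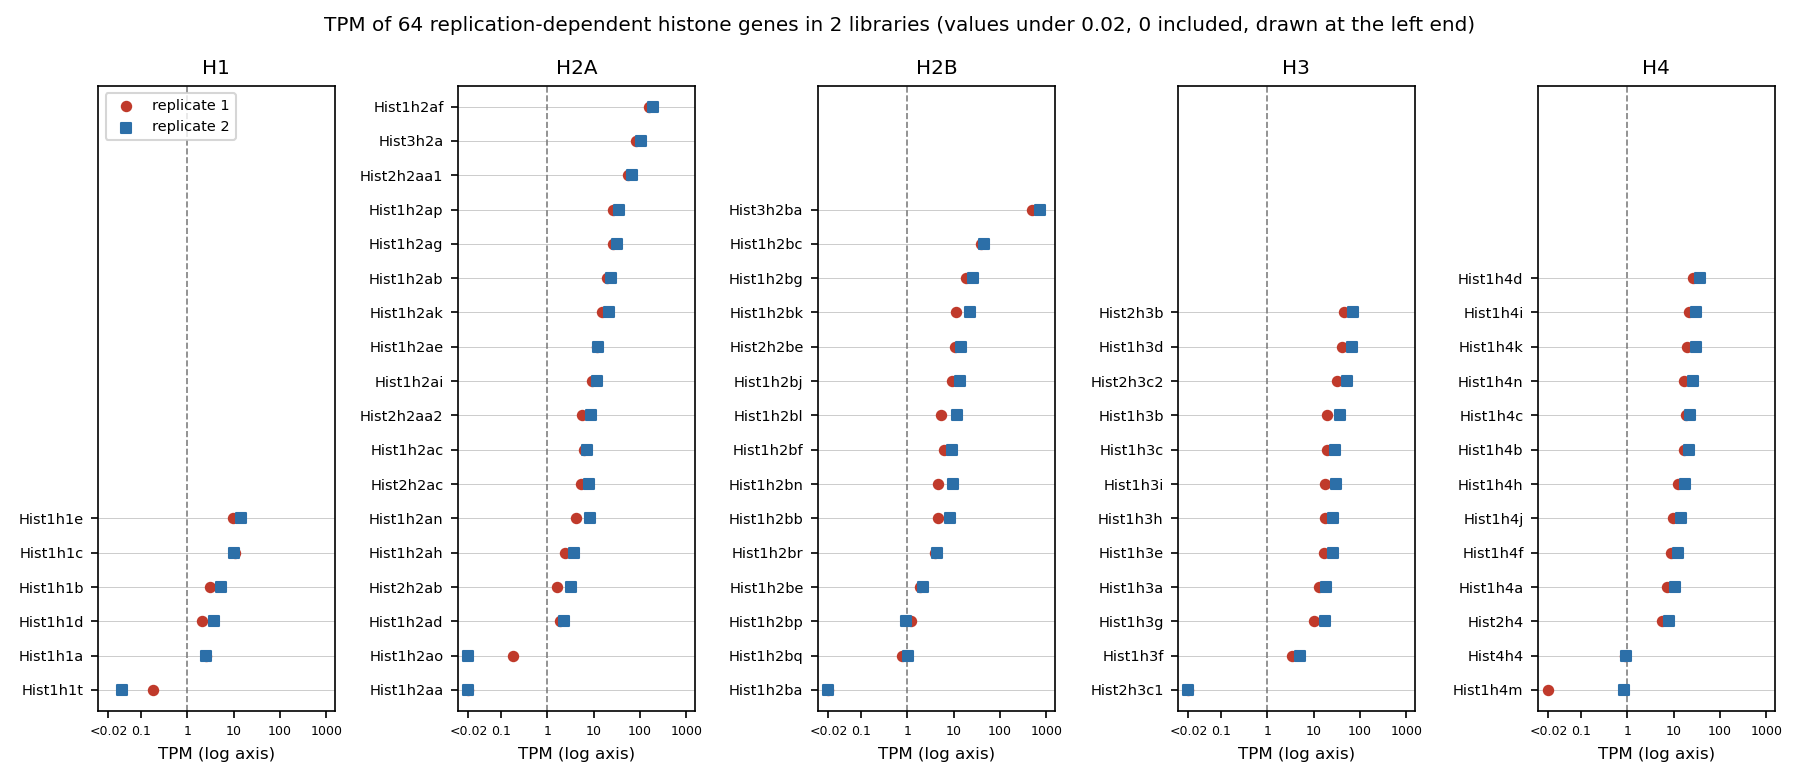
TPM of the 64 members in replicate 1 (circles) and replicate 2 (squares), by histone class, on a log axis where values under 0.02 are drawn at the left end and the dashed line marks 1 TPM. Hist3h2ba stands apart at 491.49 and 719.22 TPM, and 55 members lie at or right of the line in both replicates.

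A single gene dominated the H2B class. Hist3h2ba, a single-exon gene of the Hist3 group on mm10 (chr11:58948920-58949533, plus strand, ENSMUSG00000056895), had 491.49 TPM in replicate 1 and 719.22 TPM in replicate 2, from 12969.7 and 25829.4 expected counts. That was 80.7% and 80.9% of the TPM of all H2B members, and rank 186 among the 21474 protein-coding genes by mean TPM. Little of its sequence was shared, with 4.47% of its 101-letter words (the read length) in another gene. The authors' posterior standard deviation was 0.009% and 0.005% of the count. This was not particular to Hist3h2ba, since some other members shared less. Among them was Hist2h2be of the same class, which shared 0% and had a posterior standard deviation of 0. The runner-up, Hist1h2bc, had 38.88 TPM in replicate 1 and 45.81 TPM in replicate 2. Hist1h2bg followed with 18.77 and 26.59 TPM, and Hist1h2bk with 11.29 and 22.10 TPM. Hist2h2be, which has the longest H2B model with a single exon and no stem-loop match, had 10.46 and 14.64 TPM. Besides Hist3h2ba, H2B members therefore reached 45.81 TPM at most.

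H2A was led by 3 genes of different groups. Hist1h2af (chr13:23533906-23534304, plus strand) had 157.14 TPM in replicate 1 and 192.29 TPM in replicate 2. Its deposited model is only 399 nt long, so its TPM rests on 2009.12 and 3425.61 expected counts, and 78.9% of its 101-letter words also occur in other genes. Hist3h2a (chr11:58954685-58956830, plus strand, ENSMUSG00000078851), which neighbours Hist3h2ba, had 83.58 and 106.72 TPM from 10309.9 and 17598.3 counts. It took 64.6% and 64.3% of the counts of H2A members but 19.3% and 19.6% of their TPM, because its model is 2146 nt long. Hist3h2a also lies whole within Trim17 on the same strand, so reads cannot be told apart by strand there. Hist2h2aa1 had 55.68 and 65.57 TPM, Hist1h2ap 25.99 and 36.02 TPM, and Hist1h2ag 26.74 and 32.44 TPM. Hist2h2aa1 overlaps the noncoding gene Gm20634 over 529 nt on the same strand. The remaining 3 Hist2 genes of this class were lower. Hist2h2aa2 had 5.47 and 8.73 TPM. Hist2h2ac had 5.45 and 7.94 TPM, and Hist2h2ab 1.60 and 3.29 TPM.

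In H3 and H4 no gene dominated. Among H3 genes Hist2h3b had 44.31 TPM in replicate 1 and 70.40 TPM in replicate 2. Hist1h3d had 40.38 and 67.36 TPM, and Hist2h3c2 31.38 and 52.31 TPM. The next were Hist1h3b, with 19.69 and 37.12 TPM, and Hist1h3c, with 19.72 and 29.09 TPM, so the first 5 H3 genes lay between 19.69 and 44.31 TPM in replicate 1. Among H4 genes, known to encode the same protein, Hist1h4d had 26.68 and 37.15 TPM. Hist1h4i had 21.83 and 30.33 TPM, and Hist1h4k 19.77 and 31.05 TPM. Hist1h4n had 16.81 and 26.74 TPM, and Hist1h4c 18.76 and 22.77 TPM. Hist1h4d was above the other 4 in both replicates, while Hist1h4i and Hist1h4k changed places between them, as did Hist1h4n and Hist1h4c. Outside the Hist1 group, Hist2h4 had 5.70 and 8.10 TPM and Hist4h4, the lone member on chromosome 6, 0.90 and 0.96 TPM.

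H1, the linker histones that bind DNA between nucleosomes, was the lowest class with 28.2 TPM in sum in replicate 1 and 36.5 TPM in replicate 2. Hist1h1e, which overlaps Hist1h2be over 496 nt on the same strand in M21, had 9.63 and 14.46 TPM, and Hist1h1c 10.56 and 10.34 TPM. Hist1h1b had 3.15 and 5.43 TPM, Hist1h1d 2.11 and 3.79 TPM, and Hist1h1a 2.52 and 2.48 TPM. The last of the class, Hist1h1t, known as the testis H1, had 0.18 and 0.04 TPM from 6.00 and 2.00 counts.

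Of the 9 members not detected, 3 had no count in either library under their own gene identifier: Hist1h2aa and Hist1h2ba, the H2A and H2B known from male germ cells, and Hist2h3c1. With no count seen, up to 3 counts remain possible, which is 0.0301 CPM in replicate 1 and 0.0223 CPM in replicate 2; this limit covers counting error only. The germ cell markers Ddx4, Dazl and Sycp3 were at 1.17, 0.14 and 0.13 TPM in replicate 1 and 1.26, 0.18 and 0.14 TPM in replicate 2. On mm9, Hist1h2ba had 0.116 RPKM in field 1 and 0.050 in field 2. For Hist2h3c1, a transcript listed under another gene identifier had 0 and 8.67 counts, and all of its 101-letter words also occur in other genes. The authors' posterior mean for the gene was 6.99 ± 7.80 counts in replicate 1 and 7.01 ± 7.01 in replicate 2 (posterior SD). Hist1h2ao had 3.18 counts in replicate 1 and 0 in replicate 2, and Hist1h4m 0 and 15.02 counts. The other 4 undetected members, Hist1h1t, Hist1h2bq, Hist1h2bp and Hist4h4, were under 1 TPM in at least 1 replicate but had counts in both. The call of Hist1h2bq rests on its gene identifier, since its single-exon coding transcript is listed under another identifier at 6.76 TPM in replicate 1 and 9.72 TPM in replicate 2.

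How reads were divided between near-identical copies bears on these values. Of the 67 members, 6 shared no 101-letter word with another gene, 33 shared up to 50% and 28 over 50%. Words were taken from M21 models, while the authors' values used the older GENCODE M4 models. Of 69 member transcripts listed under their own gene, 18 were shorter there and 3 longer. Hist1h1d, for example, shared 0.76% over a model of 7425 nt but was quantified on 744 nt, so sharing may be understated for such members. Among members with a posterior mean of at least 20 counts in replicate 1, the median posterior SD was 0.92% of the count in replicate 1 and 0.83% in replicate 2 for those sharing up to 50%. It was 3.10% and 2.32% for those sharing more. Hist2h2aa1 and Hist2h2aa2 were the extreme pair: every word of Hist2h2aa2 occurs in Hist2h2aa1, and the posterior SD of Hist2h2aa2 was 47.7% and 41.1% of its count. The mm10 tables gave them 55.68 and 5.47 TPM in replicate 1 and 65.57 and 8.73 TPM in replicate 2. The mm9 table gave them 7.38 and 7.57 RPKM in field 1 and 6.34 and 6.52 RPKM in field 2, where the fields are not tied to the numbered replicates by any label. Hist2h2aa1 was on the plus strand on mm10 but on the minus strand on mm9, and Hist2h2aa2 the reverse. The order of the pair along chromosome 3 turned round as well. Hist2h2aa1 starts at 96245497 on mm10 and 96043639 on mm9, and Hist2h2aa2 at 96239749 and 96049461. Their neighbour Hist2h2be kept the plus strand. The 2 identifiers may thus stand for exchanged copies, and values under the same identifier may not be of the same copy. Words of each gene of the pair occur in 23 other genes in all. Hist1h4m, which shares 88.1% of its words with Hist1h4n, likewise had 0 and 0.83 TPM on mm10 but 2.27 and 1.17 RPKM on mm9. Over the 53 members present in both builds, matched by gene identifier, mean TPM on mm10 and mean RPKM on mm9 had a Spearman's rho of 0.81. This is a description over genes that share libraries and reads. It includes Hist2h2aa1 and Hist2h2aa2, whose values under the same identifier may be of exchanged copies.

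**Figure D2:**
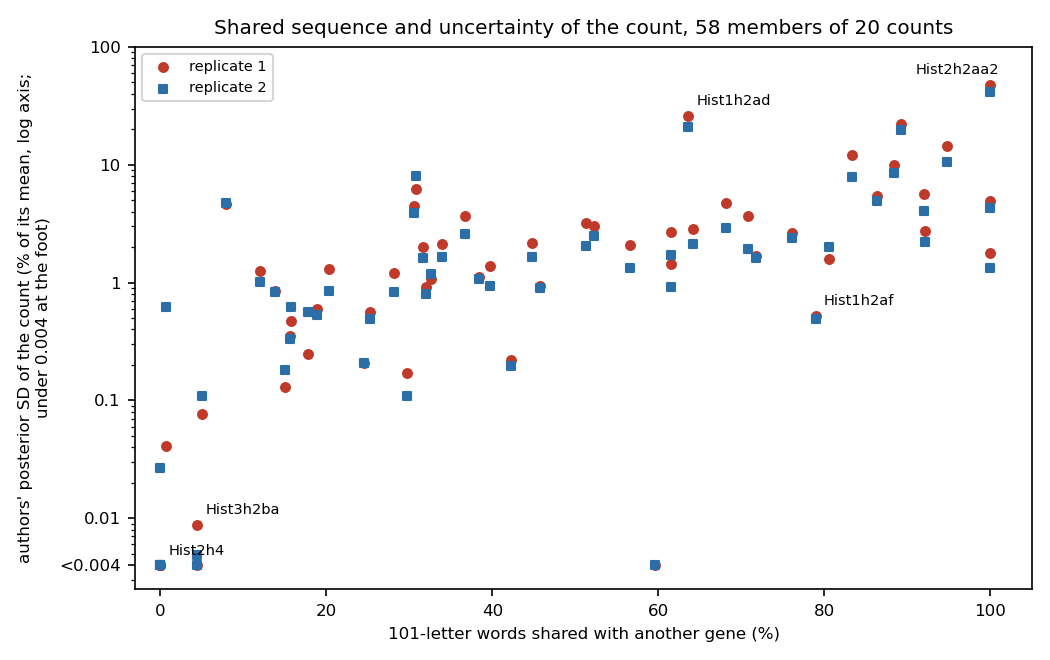
Share of a member's 101-letter words found in another gene (horizontal, %) against the authors' posterior standard deviation as a percentage of the count (vertical, log axis), for the 58 members with at least 20 counts in replicate 1; circles are replicate 1 and squares replicate 2, and values under 0.004 are drawn at the foot. Hist3h2ba sits at 4.47% shared and Hist2h2aa2 at 100%, with a posterior SD of 47.7% in replicate 1. Words are of M21 models and the posterior SD is of M4 models, which differ in length for some members.

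The Hist3 pair set the totals. Hist3h2ba and Hist3h2a together took 52.5% of all member counts in replicate 1 and 51.8% in replicate 2, and 39.2% and 39.6% of the TPM. Without them the other 62 members had 211.9 and 299.5 CPM in sum. The 52 Hist1 genes in the tables took 33.2% and 33.4% of the counts, and the 9 Hist2 genes 14.0% and 14.5%. Shares of each group differed between the replicates by under 1 percentage point, although the sum itself differed.

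The median replication-dependent member stood below the median of the replication-independent variants, most of whose RNAs carry an ordinary poly(A) tail. Of 64 members 4 were above at least 1 of the 11 variants in both replicates: Hist3h2ba above 8, Hist1h2af above 4, Hist3h2a above 2 and Hist2h2aa1 above 1. Members were lower than the 11 variants by 4.30 on the log2(TPM + 1) scale in replicate 1 and by 4.24 in replicate 2, as a difference of medians, which is a mean difference of -4.27 ± 0.04 (SD, n = 2). The variant H3f3a, which encodes H3.3, had 1606.64 and 2170.76 TPM, H3f3b 957.5 and 1020.14 TPM, and H2afz, which encodes H2A.Z, 833.16 and 1115.66 TPM. Summed TPM of the 12 H3 members was 234 in replicate 1 and 380 in replicate 2, against 2630 and 3272 TPM for H3f3a, H3f3b and Cenpa. In H2A, members summed to 432 and 544 TPM, against 1748 and 2235 TPM for 6 variants. In H1, members summed to 28.2 and 36.5 TPM, against 321 and 392 TPM for H1f0 and H1fx. Over these 3 classes, members gave 12.9% of the TPM of members and variants in replicate 1 and 14.0% in replicate 2. With the H2B and H4 members, for which no variant was listed, it was 23.8% and 26.1%. A poly(A)+ library samples tailed and tail-less RNA unequally, so these shares are shares of this library and not of the cells' RNA.

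Genes for the processing and control of histone RNA, not all of them particular to stem-loop ends, were measured alongside. Of 18 listed genes of histone pre-mRNA processing and control, 17 were detected, with a median of 19.2 TPM in replicate 1 and 20.9 TPM in replicate 2. The stem-loop binding protein gene Slbp had 75.69 and 75.39 TPM. The 3 highest of the list were Srrt, with 87.93 and 91.41 TPM, Ncbp1, with 78.0 and 91.28 TPM, and Sympk, with 79.13 and 81.59 TPM. Zfp473, whose product is known to bind the complex on the stem-loop, was the exception at 0.86 and 0.71 TPM. All 21 listed S phase genes were detected, among them Pcna with 177.21 and 233.05 TPM, Mcm7 with 130.87 and 163.08 TPM, and Nasp, a histone chaperone, with 132.52 and 149.98 TPM. Other RNAs listed as tail-less were also present, and 9 of 13 were detected. Rn7sk led with 6887.79 and 9143.97 TPM, and the paired copies Rn7s1 and Rn7s2 each had 1113.11 and 1173.81 TPM. The 9 include Malat1 and Neat1, and whether each RNA of the list lacks a tail in all its forms was not tested.

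The annotation gives where the members' models end, which need not be where the RNA in these libraries ended. The letters AATAAA or ATTAAA were searched on the transcript's own strand in its last 40 nt. They were found in 17 of 67 members (25.4%) and in 76.3% of other protein-coding genes. Sequence past a model's end was not searched. A model that stops at the stop codon or shortly past the stem-loop has little room for these letters, so the shares depend on model length. The following stretches give these letters in capitals for members whose models run past the stem-loop or lack one.
Hist3h2ba (chr11:58949507-58949512, plus strand): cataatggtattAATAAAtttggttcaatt
Hist3h2a (chr11:58956797-58956802, plus strand): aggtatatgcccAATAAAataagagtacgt
Hist2h2be (chr3:96223717-96223722, plus strand): gttattattattAATAAAgttaccgattag
Hist1h1c (chr13:23740342-23740347, plus strand): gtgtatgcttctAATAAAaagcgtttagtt
Hist1h4i (chr13:22040651-22040656, minus strand): ggttctgtttacATTAAAagtattctatgc

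In Hist3h2ba the model ends 169 nt past the stem-loop, with AATAAA beginning 27 nt before the end, and in Hist3h2a it ends 1643 nt past it. Over the 44 members that had a stem-loop match and a value, 22 had a model that ended more than 100 nt past it, of which 12 carried the letters near the end. The other 22 ended within 100 nt, and 2 of them carried the letters. The median of mean TPM was 12.1 for the 22 genes with longer models and 14.3 for the 22 with shorter ones. However, the tables were quantified on a model of another length for 12 of the longer and 5 of the shorter genes. Among transcripts whose deposited length equals that in M21 the order was the other way, with medians of 13.7 TPM in replicate 1 and 20.5 TPM in replicate 2 for 10 transcripts over 100 nt past the stem-loop, against 11.3 and 18.2 TPM for 17 within 100 nt. No order of level by annotated reach holds over both ways of counting. Members with the letters had a median of 8.88 TPM, with 12 of 17 detected, and members without them a median of 13.9 TPM, with 43 of 47 detected. Hist2h2aa1, whose model ends 35 nt past the stem-loop without these letters, had 55.68 TPM in replicate 1 and 65.57 TPM in replicate 2. Its model has little room for the letters, and whether its RNA reached a downstream signal was not tested. Under this identifier a contig on mm9 ran 312 nt past the gene's end, though the copy may be an exchanged one. The level of Hist2h2aa1 is uncertain too. Of its words 100% occur in other genes, and Gm20634 overlaps it over 529 nt on the same strand.

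**Figure D3:**
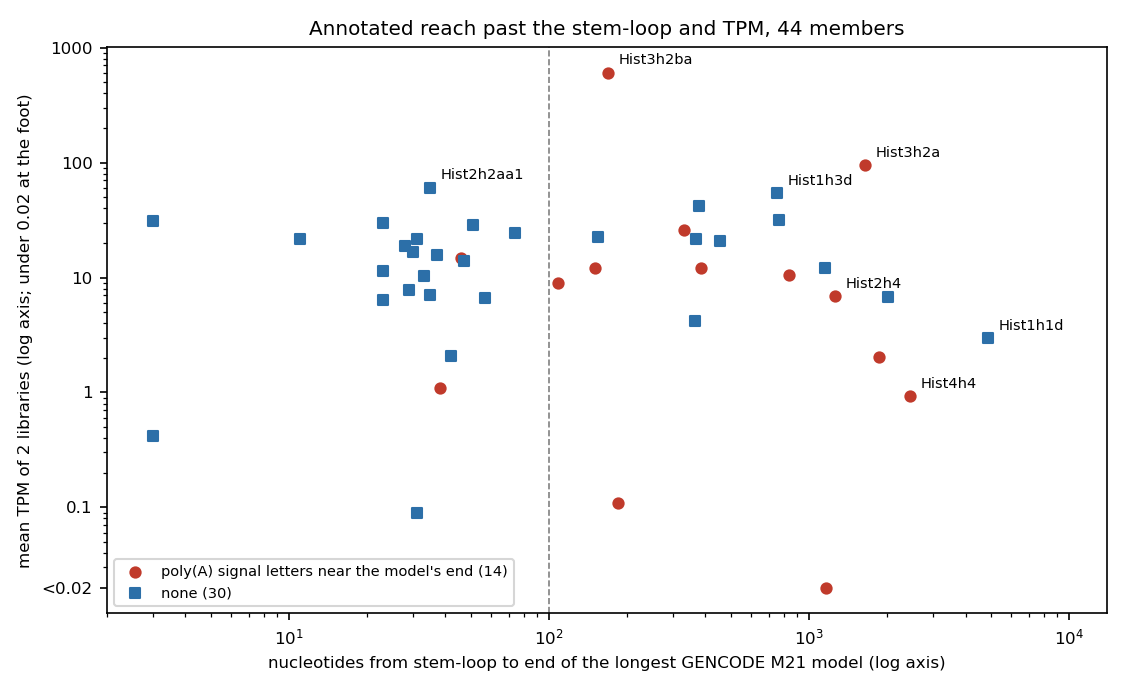
Nucleotides from the stem-loop to the end of a member's longest M21 model (horizontal, log axis; dashed line at 100 nt) against its mean TPM (vertical, log axis, values under 0.02 at the foot), for 44 members; circles are the 14 with AATAAA or ATTAAA in the last 40 nt and squares the 30 without. The median is 12.1 TPM right of the line and 14.3 TPM left of it, an order that turns round among transcripts of the same length in both annotations, and Hist3h2ba stands apart at 169 nt.

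By deposited transcript values, 46.5% of member TPM in replicate 1 and 47.2% in replicate 2 stood on transcripts that were spliced or whose model ended more than 100 nt past the stem-loop. This covers 14 transcripts of 13 genes, and only transcripts whose deposited length equals that in M21, since the tables were made with the older GENCODE M4. Transcripts whose model ended within 100 nt of the stem-loop held 16.4% and 16.1%, those with no match in the model 21.4% and 21.2%, and those whose length differed between annotations 15.7% and 15.5%. The Hist3 pair decides the first value: without it, 12.1% and 12.5% of the remaining TPM stood on spliced or longer transcripts. Neither value counts Hist1h2bc, which has 2 exons in M21 but another deposited length. Nor do they count Hist2h2be, whose long model has no stem-loop match. A read from the coding part counts toward whichever model a gene has, so these shares tell which models took the reads and not where the molecules ended.

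Contigs, the stretches of continuous read coverage that the authors deposited on mm9 with the replicates combined, show coverage past gene ends. Of 53 members in the mm9 Ensembl 65 table, 28 (52.8%) had a contig on the same strand that ran at least 100 nt past the annotated end, against 49.8% of 20175 protein-coding genes, so the share is near that of other genes. For 24 of the 28 no other gene lay under the stretch on that strand. The contig of Hist3h2ba ran 1414 nt past the gene's end at a base density of 46.0, the highest among the 28, and began 882 nt before the gene. The contig of Hist3h2a ran 6211 nt past at a density of 11.8, over another gene on the same strand. Hist1h4k, whose mm9 model is 312 nt long, had a contig that ran 5550 nt past its end at a density of 0.707. Hist2h4 had 1670 nt at 1.67, and Hist1h2bg 1843 nt at 0.806. In contrast, 17 members had no contig over their end, among them Hist2h3b, Hist1h3e and Hist1h4c. Density is an average over the whole contig, so it does not give the level past the end.

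**Figure D4:**
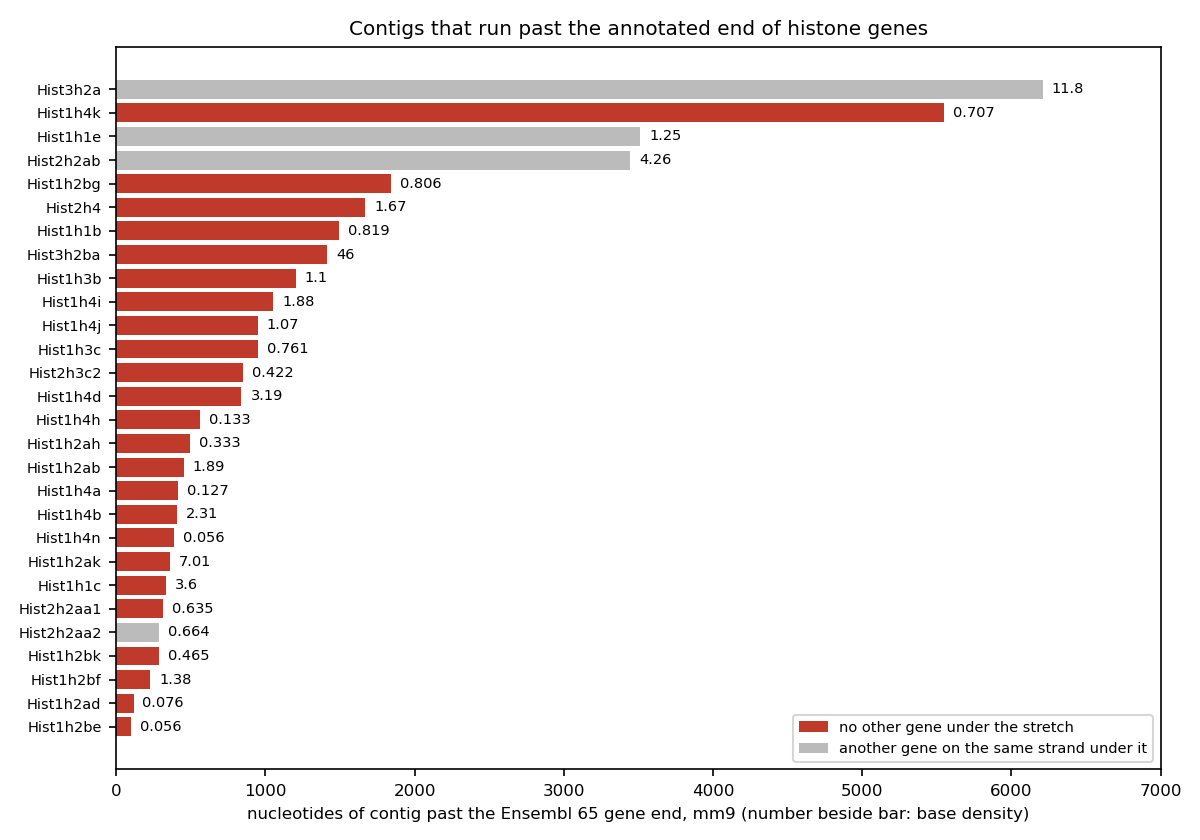
Length of contig past the annotated gene end on mm9 (bars, nt) for the 28 members where it was at least 100 nt, with the contig's base density beside each bar; the 4 grey bars have another gene on the same strand under the stretch. Hist3h2ba reaches 1414 nt at a density of 46.0, and Hist3h2a 6211 nt at 11.8.

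Splicing was rare. With at least 10 reads in both fields of the mm9 junction table, 2 of 53 members (3.77%) had a splice junction, against 67.9% of protein-coding genes, and 62 of the 67 members have only single-exon models. Hist1h2bc had an annotated junction over an intron of 7554 nt with 332 reads in field 1 and 478 in field 2. Its first exon lay in a contig of 558 nt at a density of 6.50, and its last in one of 871 nt at 2.50, with weaker contigs at 0.031 to 0.118 between. Its spliced model has no stem-loop match. Hist3h2ba had a junction over 168 nt, not annotated, with 18 reads in field 1 and 35 in field 2. At 3 or more reads in both fields, 8 members had a junction, but these are not 8 separate cases. Hist1h2ae and Hist1h2ac were both called from the same junction over 112809 nt, not annotated, with 7 and 19 reads. The near-identical Hist1h2br and Hist1h2bq each had an annotated junction over 1667 nt with 4 and 4 reads.

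Between the replicates, nearly every member was lower in replicate 1. The ratio of replicate 1 over replicate 2 was taken on rounded expected counts scaled by TMM (a scaling that assumes most genes do not differ), for genes with a mean of at least 20 counts. Of the 64 members 58 passed this filter, and 56 of them were lower in replicate 1, against 51.2% of the 18271 genes that passed. Their median log2 ratio was -0.56, with a range of -1.17 to 0.35, and that of all genes was -0.01. By class the medians were -0.61 for 5 H1 genes, -0.40 for 16 H2A genes, -0.56 for 14 H2B genes, -0.71 for 11 H3 genes and -0.54 for 12 H4 genes. With 1 library on each side there is no p-value. On mm9, 49 of 53 members had a higher RPKM in field 1 and 3 in field 2. No label ties these fields to the replicates, and the same count over all mm9 genes was not taken.

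At least 2-fold lower in replicate 1 were 5 members, against 0.695% of genes, and none was 2-fold higher, against 6.43% of genes. Hist1h2bn had 4.55 TPM in replicate 1 and 9.81 TPM in replicate 2, a log2 ratio of -1.17. Hist1h2bl had 5.46 and 11.64 TPM (-1.15), and Hist2h2ab 1.60 and 3.29 TPM (-1.07). Hist1h2an had 4.18 and 8.25 TPM (-1.03), and Hist1h2bk 11.29 and 22.10 TPM (-1.01). Of these 5 only Hist1h2bk had a mean of at least 200 counts, and scaled by library totals its ratio was -0.99, short of 2-fold. The H1 genes Hist1h1a and Hist1h1c lay at the other end with ratios of -0.01 and 0.02, and Hist1h2bp was higher in replicate 1 at 0.35. Hist3h2ba had a ratio of -0.58 and Hist3h2a one of -0.36.

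**Figure D5:**
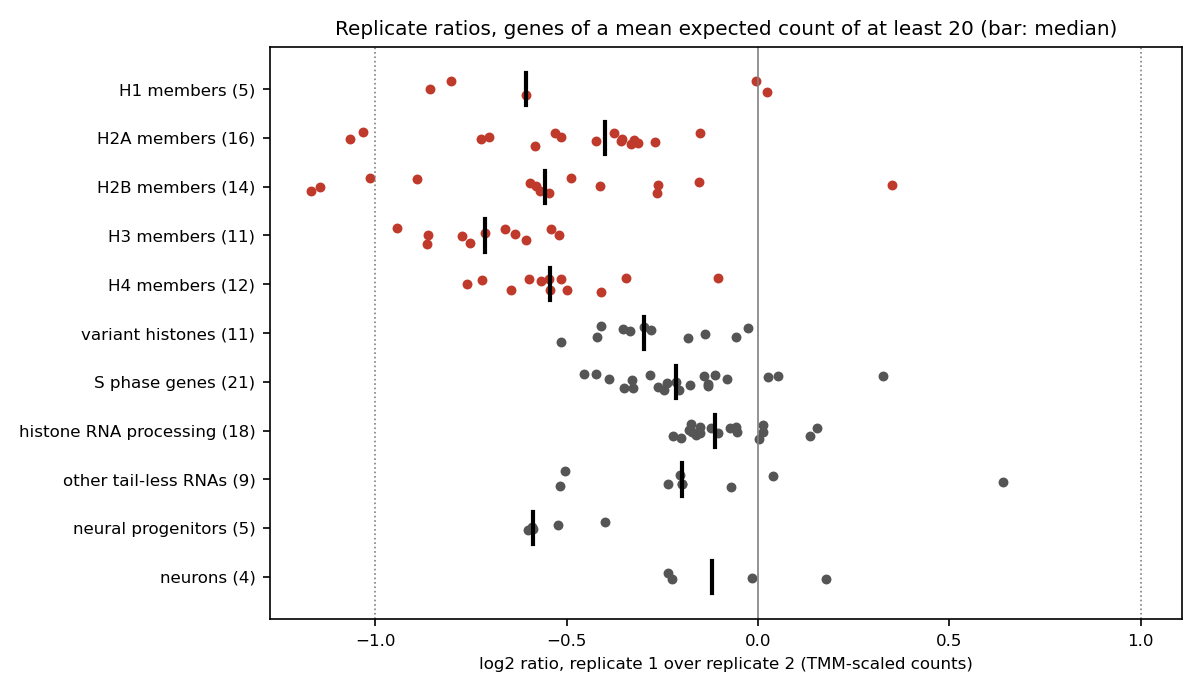
Log2 ratio of replicate 1 over replicate 2 for members by class and for other lists, each point 1 gene with a mean of at least 20 counts and each bar a median, with dotted lines at 2-fold. All 11 H3 members lie left of 0 with a median of -0.71, while the 18 genes of processing and control have a median of -0.11.

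Some other lists were also lower in replicate 1, while markers of muscle, cartilage, epidermis and red blood cells were higher there. The 5 markers of dividing neural progenitors, Hes5, Sox2, Pax6, Top2a and Mki67, had a median ratio of -0.59 and were all lower in replicate 1. The 21 S phase genes had a median of -0.21, the 11 variant histones -0.30 and the 18 genes of processing and control -0.11. The 9 RNAs listed as tail-less that passed had a median of -0.20 and the 4 neuronal markers one of -0.12. All 5 muscle, 4 cartilage and 3 epidermis markers were at least 2-fold higher in replicate 1, with medians of 6.54, 4.06 and 3.37, and 6 red blood cell markers had a median of 0.93. Summed over each list in replicates 1 and 2, muscle markers had 381 and 7.54 TPM, cartilage markers 697 and 87.5 TPM, and progenitor markers 252 and 359 TPM. The part of these tissue differences in the members' ratios was not tested, and in bulk tissue fewer cells of a type and less RNA per cell cannot be told apart.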

How the data were processed

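Expected counts, TPM and FPKM per gene and transcript on mm10 with GENCODE M4 are the authors' values, per the file headers and the text deposited with them, as are the posterior standard deviation scores, the lengths and the percent of a gene's TPM in each transcript. The expected count is an estimate that divides reads between similar copies. On mm9, the deposited gene table holds RPKM in 2 fields, the deposited junction table read counts in 2 fields, and the deposited contig table coverage read from its values. The tools for mapping and quantification were not given in the sources used here.

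Symbols, positions and sequences came from GENCODE M21 by gene identifier, and the members and gene lists were chosen with earlier results of these data known. The loop of the stem-loop search was changed from TTNN to TNTN after the members' sequences were seen: with TTNN, 44 members and 86 other genes had a match. Values are given for the 5 highest members of each class, every Hist2, Hist3 and Hist4 gene in the tables, members at least 2-fold apart, members with 3 or fewer counts and the 3 highest of the lists of variants, processing, S phase and tail-less RNAs. CPM were taken over genes. Member models are short, with a median effective length of 286 and 296 nt in replicates 1 and 2, so few counts can give a high TPM. Counts were rounded and scaled by TMM in edgeR 4.0.16 (R 4.3.3) with a prior count of 1, and the ratio step was tested on simulated counts. DESeq2 1.42.0 gave alternative size factors. Figures used matplotlib 3.10.9 in Python 3.11.15. Alternatives were other thresholds, scalings, units and each replicate alone.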

Additional observations from a re-analysis of the deposited data

Results flagged for a closer look

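Of 3 histone symbols outside the protein-coding genes, 2 carried counts above the limit of 3 that a count of 0 allows, and Hist1h2al, with 0 and 1.04 counts in replicates 1 and 2, did not. The pseudogene Hist3h2bb-ps, on the opposite strand between the Hist3 genes, had 105.27 expected counts in replicate 1 and 136.64 in replicate 2. The pseudogene Hist1h2aj had 25.17 counts in replicate 1 and 64.81 in replicate 2.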

How the results depend on the processing

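The number of detected members, 55, ranged from 37 with mm9 RPKM, where 53 members were listed, to 58 at 0.1 TPM, and was 56 with either replicate alone. The summed 534 CPM was 233 without the 3 highest members and 446 to 622 with a replicate left out. The median ratio of -0.56 ranged from -0.60 with spike-in scaling to -0.51 with TPM. The 5 members at least 2-fold apart became 4 with library totals, where Hist1h2bk was lost, 8 with no filter, 1 at a mean of 200 counts and 25 at 1.5-fold. The difference from the variants of -4.27 was -4.37 with a pseudocount of 0.1, -4.20 with FPKM, -3.01 with mm9 RPKM, -3.97 over detected members, and -4.30 to -4.24 with a replicate left out. The share on spliced or longer transcripts, 46.9% as a mean of both replicates, was 48.8% past 50 nt, 12.4% past 300 nt, 64.1% by expected counts, 46.5% to 47.2% with a replicate left out and, in an alternative chosen after seeing the data, 12.3% without the Hist3 pair. Contigs past the end were 29 at 50 nt and 23 at 300 nt. The 2 members with junctions became 8 at 3 reads and 1 at 50 reads. The cause of these differences was not tested where the setting itself does not give it. No paired analysis was possible because there was a single group. With 1 library in each replicate, no ratio has a p-value, and genes under 20 counts could not be compared at this depth.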

Other observations

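Among the histone variants known mainly from germ cells, 1 of 8 was detected: H3f3c, with 53.96 TPM in replicate 1 and 81.78 TPM in replicate 2. Its expected counts of 730.8 and 1539.44 are not whole numbers, as where reads are divided between similar copies. How much of its sequence other genes share was not measured, so its level is uncertain. The other 7, Hils1, H2al2a, H1foo, H1fnt, H2bfm, H2afb1 and H2al1a, had at most 0.09 TPM in either replicate. Transcripts annotated to members in GENCODE M21 were also listed under other gene identifiers in the deposited tables: that of Hist2h2bb, a member without a gene value, had 8.36 and 11.60 TPM, and the single-exon coding transcripts of Hist1h2bq and Hist1h2br had 6.76 and 9.72 TPM and 4.64 and 9.57 TPM. A transcript of Hist2h3c1 had 0 and 0.06 TPM, from 0 and 8.67 counts.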
